A study of Homo sapiens with 12 samples.

Results

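The genes described here are the zinc finger genes of human chromosome 19 that carry a ZNF symbol, chosen as every row of the count table whose name is ZNF followed by digits only and whose first listed chromosome is chromosome 19. There were 239 of them among 26485 genes, and 225 counted as expressed, with at least 10 counts in at least 3 libraries. RNA was sequenced from COV362 and PEO1, both established cell lines of ovarian carcinoma, in 12 libraries lettered A, B and C within each of 4 groups. The groups were COV362 with 20 nM prexasertib, COV362 with DMSO, PEO1 with 20 nM prexasertib and PEO1 with DMSO, where prexasertib blocks CHK1 and CHK2, kinases of the DNA damage checkpoint, and DMSO is the vehicle. The labels call the cells parental and give no treatment time. They do not state that replicates came from separate cultures, so p-values measure the spread between these libraries, which may be technical.

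Most ZNF genes of chromosome 19 encode proteins with a KRAB domain at one end and a row of C2H2 zinc fingers at the other. The fingers bind DNA, often inside transposable elements, and the KRAB domain recruits the scaffold protein TRIM28, which brings in the histone methyltransferase SETDB1 and other repressors. The family arose by repeated duplication, so that its members lie side by side in clusters along the chromosome, with similar sequences and many fingers each.

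Among the 237 members matched to a GENCODE 29 transcript, 187 held a KRAB A box motif (leucine, tyrosine, any 2 residues, valine, methionine, any residue, glutamate) in a translated reading frame. The number of C2H2 fingers in the longest reading frame had a median of 12 and reached 36 in ZNF208. The plus strand held 129 members and the minus strand 110. Their transcripts were low in GC, with a median of 42.3%, against 48.6% over all genes with a transcript and 58.7% over the other genes of chromosome 19. Parted wherever the distance to the next member was over 500 kb, the 239 members fell into 20 positional groups, numbered here from the short-arm end, and 8 groups of at least 10 members held 217 of them.

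A promoter was found in the RefSeq table (build GRCh38.p14, 250 bases before to 50 after the first listed start) for 206 members. The ETS motif CCGGAAG, on either strand, was present in 43.7% of these promoters and in 10.7% of all 27305 promoters. The CCAAT motif, on either strand, was present in 51.9% and 35.7% of them, and the TATAAA motif in 1.94% and 12%. No match of one of these motifs can lie inside a match of another. The number of CpG dinucleotides per promoter had a median of 20 in members and 14 in all promoters. These matches describe letters in a window and say nothing of the binding of a factor. The promoters of 6 members are printed 5′ to 3′ on the gene's strand, with both motifs, on either strand, in capitals. They are ZNF442, ZNF850 and ZNF829, which rose steeply in PEO1, ZNF358, which fell there without the adjustment for GC given later, and ZNF69 and ZNF671, whose levels parted the lines. They lie at chr19:12365634-12365933 (minus strand, ZNF442), chr19:36772758-36773057 (minus, ZNF850), chr19:36916242-36916541 (minus, ZNF829), chr19:7515853-7516152 (plus, ZNF358), chr19:11887532-11887831 (plus, ZNF69) and chr19:57727575-57727874 (minus, ZNF671).
ZNF442: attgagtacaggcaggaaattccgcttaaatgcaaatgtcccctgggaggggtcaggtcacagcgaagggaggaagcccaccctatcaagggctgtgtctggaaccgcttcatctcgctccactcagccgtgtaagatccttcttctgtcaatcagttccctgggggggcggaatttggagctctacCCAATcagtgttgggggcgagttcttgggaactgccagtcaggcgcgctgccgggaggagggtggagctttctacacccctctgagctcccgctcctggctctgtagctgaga
ZNF850: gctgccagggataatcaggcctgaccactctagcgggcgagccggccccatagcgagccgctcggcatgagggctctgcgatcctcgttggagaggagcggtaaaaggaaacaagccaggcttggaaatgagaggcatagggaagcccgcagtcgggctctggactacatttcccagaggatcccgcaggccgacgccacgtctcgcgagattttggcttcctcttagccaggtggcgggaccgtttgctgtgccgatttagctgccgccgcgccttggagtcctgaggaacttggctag
ZNF829: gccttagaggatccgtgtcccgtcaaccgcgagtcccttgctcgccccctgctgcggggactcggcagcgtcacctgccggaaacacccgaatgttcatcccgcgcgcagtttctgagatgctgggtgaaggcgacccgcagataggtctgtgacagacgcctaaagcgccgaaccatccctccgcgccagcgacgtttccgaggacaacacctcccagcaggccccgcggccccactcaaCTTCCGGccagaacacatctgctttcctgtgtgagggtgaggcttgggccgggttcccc
ZNF358: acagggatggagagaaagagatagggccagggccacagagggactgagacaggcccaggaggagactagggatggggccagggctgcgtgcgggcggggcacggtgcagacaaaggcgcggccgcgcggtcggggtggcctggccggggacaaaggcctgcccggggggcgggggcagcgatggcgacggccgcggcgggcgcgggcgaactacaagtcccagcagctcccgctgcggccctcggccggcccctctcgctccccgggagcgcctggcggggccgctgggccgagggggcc
ZNF69: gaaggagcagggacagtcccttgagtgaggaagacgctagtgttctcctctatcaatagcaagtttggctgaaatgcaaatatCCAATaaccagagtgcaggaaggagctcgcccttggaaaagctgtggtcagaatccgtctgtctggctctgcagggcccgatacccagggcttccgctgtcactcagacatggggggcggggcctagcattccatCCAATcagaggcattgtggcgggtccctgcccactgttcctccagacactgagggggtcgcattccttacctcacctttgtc
ZNF671: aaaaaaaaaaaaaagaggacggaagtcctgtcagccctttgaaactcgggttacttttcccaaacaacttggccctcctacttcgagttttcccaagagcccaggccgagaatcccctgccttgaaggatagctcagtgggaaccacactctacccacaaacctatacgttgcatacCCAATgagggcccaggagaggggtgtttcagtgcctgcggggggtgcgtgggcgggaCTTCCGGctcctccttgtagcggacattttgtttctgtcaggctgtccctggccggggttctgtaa

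The promoter of ZNF358 held 32 CpG dinucleotides and neither motif, while that of ZNF69 held 8 and CCAAT at 2 places. The ZNF442 promoter had CCAAT once and 11 CpG. The ZNF671 promoter had both motifs, and ZNF829 had the ETS motif once. ZNF850 had neither. Among members, the ETS motif was present in 46.7% of the 107 promoters of genes called higher with prexasertib in PEO1 and in 40.9% of the 88 promoters of tested genes not called there, and CCAAT in 51.4% and 54.5%. Of the other 6 motifs searched on both strands, the NRF1 motif was present in 8.41% and 18.2% of these promoters, the AP-1 motif TGANTCA in 9.35% and 3.41%, the E2F motif TTTNGCGC in 4.67% and 10.2%, the CRE motif TGACGTCA in 4.67% and 2.27% and TATAAA in 0.935% and 3.41%. The NF-kB motif was in none of either. Over all promoters these 6 were present in 6.28%, 7.76%, 1.83%, 1.98%, 12% and 0.579%, and the NRF1 and E2F motifs can overlap at GCGC. These shares were not tested against each other.

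Library totals ranged from 9390790 to 18262805 counts. The 10 markers of ovarian carcinoma summed to between 2360 and 8030 CPM (counts relative to the TMM-scaled library total) over the libraries, with SOX17 at 0 in PEO1. The 6 fibroblast markers summed to at most 9.58 CPM and the 5 immune markers to at most 60.2 CPM, with LUM at 0 in all groups, and the endothelial gene CDH5 averaged 73.9 CPM in COV362 DMSO. In every group the tested members lay, at the median, below the group mean in library A, by between 0.035 and 0.247 on the log2 scale, and above it in library B, by between 0.012 and 0.234.

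Expression was broad and low. Of the 239 members, 94.1% were expressed, against 92.8% of 237 ZNF genes on other chromosomes, 54.3% of the other 1481 genes of chromosome 19 and 54.95% of all genes. Only ZNF177, ZNF729, ZNF99 and ZNF728 had 0 counts in every library, and the exons of ZNF177 overlap those of the read-through gene ZNF559-ZNF177. Per length (CPM per kilobase of exon, RPKM), expressed members had a median of 3.09 in PEO1 prexasertib and 1.75 in PEO1 DMSO, and of 2.15 in COV362 prexasertib and 1.89 in COV362 DMSO. All expressed genes had medians of 5.36 and 5.23 RPKM in PEO1 and 4.82 and 4.97 RPKM in COV362, in the same order.

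ZNF146, which encodes a protein of zinc fingers alone with no KRAB domain, had the highest level per length in both lines. Under DMSO it was at 41.2 ± 1.10 RPKM in PEO1 and 56.8 ± 1.93 RPKM in COV362 (SD, n = 3 each). In PEO1 DMSO the next were ZNF544 at 18.7 ± 0.820 RPKM, ZNF358 at 18.4 ± 2.99 RPKM, ZNF581 at 15.4 ± 2.32 RPKM, ZNF317 at 15.4 ± 0.856 RPKM and ZNF266 at 11.8 ± 0.877 RPKM. From ZNF544 to ZNF317 neighbours in this order lay within their spread, while ZNF146 stood above ZNF544, and ZNF317 above ZNF266, by more than it. In COV362 DMSO, ZNF581 followed at 34.8 ± 10.5 RPKM, ZNF544 at 22.4 ± 3.19 RPKM, ZNF274 at 16.4 ± 1.76 RPKM, ZNF584 at 14.1 ± 3.02 RPKM and ZNF134 at 13.0 ± 2.16 RPKM. There the neighbours from ZNF274 to ZNF134 lay within their spread.

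Prexasertib raised the ZNF genes of chromosome 19 broadly in PEO1. Their summed level was 3587, 4053 and 3536 CPM in libraries A, B and C of PEO1 prexasertib, against 1946, 2121 and 2141 CPM in PEO1 DMSO, means of 3725 ± 285 and 2070 ± 107 CPM (SD, n = 3 each). Every treated library was above every DMSO library. In COV362 the sums were 2248, 2836 and 2494 CPM with prexasertib and 2085, 2431 and 2200 CPM with DMSO, and the groups overlapped. An exact permutation test of 3 against 3 libraries cannot go below a two-sided p of 0.10, so none is given. The ovarian carcinoma markers in PEO1 summed to 3620 to 4300 CPM with prexasertib and 6850 to 8030 CPM with DMSO. Keratins made up much of the sum: KRT7 averaged 1450 and 3040 CPM, KRT8 789 and 1690 CPM and KRT18 1010 and 1660 CPM. Of the 10 markers, 6 were called lower and 0 higher (edgeR, adjusted p under 0.05), where 14.6% of all genes were lower. EPCAM, at 449 and 418 CPM, MUC16 and CD24 were not called. The part of these markers in the result was not tested. In these bulk libraries, fewer cells of a kind and less RNA per cell cannot be told apart.

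**Figure D1:**
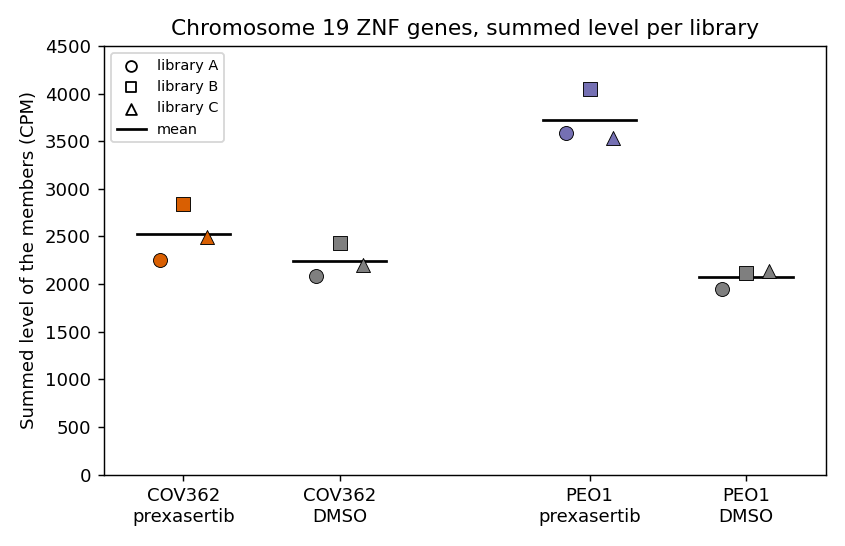
Summed level of the 239 chromosome 19 ZNF genes per library, in CPM on a linear axis from 0, with prexasertib left of DMSO in each line and a bar at each mean. The PEO1 prexasertib libraries sit between 3536 and 4053 CPM and all others between 1946 and 2836 CPM.

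Of the 223 members tested in PEO1, 121 rose and 2 fell (edgeR quasi-likelihood test, Benjamini-Hochberg adjusted p under 0.05 over 14498 genes). Over all tested genes 14.7% were called higher and 14.6% lower. Against a 1.5-fold minimum 54 members were higher, where 4.41% of all genes were. The members' median log2 fold change was 0.91, with 208 of 223 above 0, while the median of all tested genes was 0.01. Among the members called higher the log2 fold changes ran from 0.46 to 2.95, 84 were at least 2-fold, and in 118 every treated library was above every DMSO library. Regardless of the test, 156 members had all treated libraries above all DMSO libraries and 3 had them below, against a background of 25.1% and 25.0%. The number called higher was 74 without PEO1 prexasertib B and 78 without PEO1 DMSO A, and between these and 138 without each of the other libraries in turn.

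ZNF genes on other chromosomes also leaned upward in PEO1, with 80 of 220 higher and 7 lower and a median of 0.42. The other genes of chromosome 19 leaned downward, with 65 of 803 higher, 181 lower and a median of −0.26. The difference between these sets was not tested. A per-library correction for exon length and GC content left 108 members higher and 0 lower, where 14.4% of all genes were higher and 20.7% lower. The members' median was then 0.66, against −0.08 for all genes, 0.34 for ZNF genes elsewhere and −0.02 for the other genes of chromosome 19.

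Of the called members with at least 1 CPM and no overlap between the groups, the largest rise was in ZNF442 (positional group 4, chromosome 19, 12349371 to 12365661). Its level was 8.05, 7.47 and 4.65 CPM in PEO1 prexasertib A, B and C, against 0.849, 0.814 and 0.935 CPM in PEO1 DMSO. The groups stood far apart, with a log2 fold change of 2.95 ± 0.33 (7.70-fold; edgeR, adjusted p = 3.58e-05). ZNF844, in the same group, was at 21.4, 31.1 and 18.8 CPM with prexasertib and 3.46, 7.49 and 5.77 CPM with DMSO in PEO1, a log2 fold change of 2.08 ± 0.42 (edgeR, adjusted p = 0.00246). ZNF763, also in group 4, was at 6.05, 5.55 and 5.61 CPM with prexasertib and 1.17, 2.23 and 1.15 CPM with DMSO in PEO1 (log2 1.91 ± 0.40; edgeR, adjusted p = 0.00340). That the groups did not overlap in these 3 genes follows from how the genes were chosen.

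ZNF829 and ZNF850 lie in group 10. ZNF829 was at 35.8, 47.7 and 43.9 CPM in PEO1 prexasertib and 11.3, 9.72 and 11.3 CPM in PEO1 DMSO (log2 1.98 ± 0.21; edgeR, adjusted p = 2.38e-05). ZNF850, which held 29 fingers, was at 24.5, 21.7 and 26.8 CPM in PEO1 prexasertib and 5.68, 6.41 and 7.20 CPM in PEO1 DMSO (log2 1.92 ± 0.20; edgeR, adjusted p = 2.38e-05). Both genes were chosen by the same rule, under which the groups could not overlap. ZNF225, in group 13, was at 7.63, 10.2 and 7.30 CPM in PEO1 prexasertib and 1.44, 2.28 and 2.64 CPM in PEO1 DMSO (log2 1.97 ± 0.48; edgeR, adjusted p = 0.00756). It too was chosen by this rule.

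**Figure D2:**
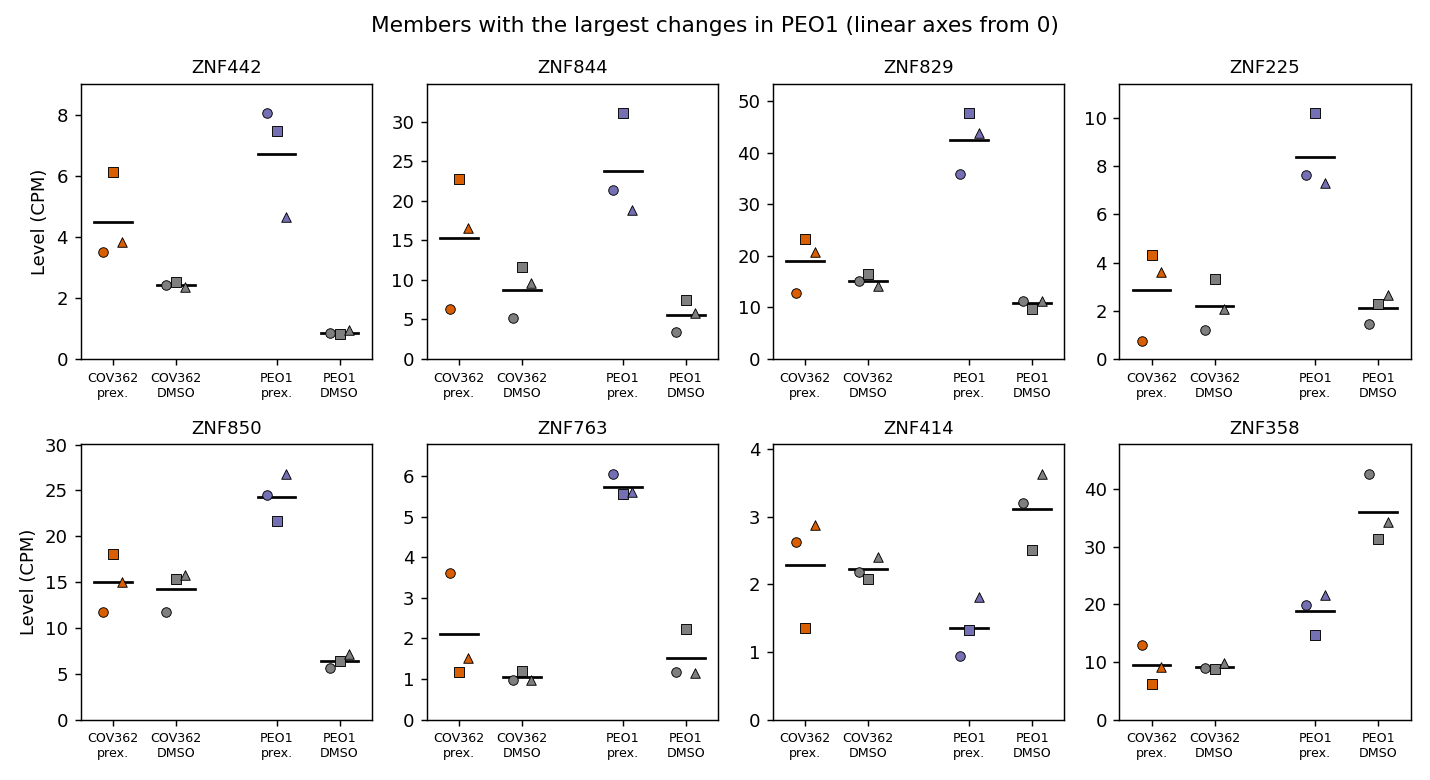
Level in CPM of the 2 members that fell in PEO1 and of the 6 with the largest rises among called members with at least 1 CPM and no overlap, by library (circle A, square B, triangle C), with a bar at each mean and linear axes from 0. In the 6 risers the PEO1 prexasertib libraries stand above PEO1 DMSO, as ZNF442 shows with 4.65 to 8.05 against 0.814 to 0.935 CPM, and in ZNF414 and ZNF358 they stand below.

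Both members that fell are rich in GC and lack the KRAB motif. ZNF414, with 3 fingers and 62.6% GC, was at 0.940, 1.32 and 1.81 CPM in PEO1 prexasertib and 3.20, 2.50 and 3.63 CPM in PEO1 DMSO (log2 −1.19 ± 0.37; edgeR, adjusted p = 0.0253). ZNF358, with 69.1% GC, was at 19.9, 14.7 and 21.7 CPM in PEO1 prexasertib and 42.6, 31.3 and 34.3 CPM in PEO1 DMSO (log2 −0.94 ± 0.23; edgeR, adjusted p = 0.00848). After the length and GC correction neither was called (edgeR, log2 −0.70 and adjusted p = 0.125 for ZNF414, log2 −0.27 and adjusted p = 0.152 for ZNF358). ZNF414 also missed the threshold without PEO1 DMSO A or C and without PEO1 prexasertib A or B.

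Split by an exact match to the KRAB A box motif, 104 of 174 tested members with the motif rose and 0 fell, with a median log2 fold change of 0.99. Members without an exact match may still hold a KRAB domain, so this is no split by domain. Of 48 without the motif, 17 rose and 2 fell, with a median of 0.60. Those without it include all 22 members with a GC content of at least 55%, a limit chosen after seeing the data, of which 0 rose and 2 fell (median 0.04). The 26 members without the motif and under 55% GC had 17 higher and 0 lower, with a median of 0.74. After the length and GC correction the medians were 0.68 with the motif and 0.53 without it, and 0.51 in the members with at least 55% GC. The number of fingers moved less with the response: the median log2 fold change was 0.81 in members with 1 to 9 fingers, 0.93 with 10 to 14 and 0.95 with 15 or more.

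The response of all genes in PEO1 also followed GC content. Genes without a ZNF name had a median log2 fold change of 0.31 below 40% GC and of −0.57 at 60% and over. At like GC the members were higher than these. Below 45% GC, 97 of 157 members rose (61.8%, median 1.0), against 55 of 109 ZNF genes elsewhere (50.5%, median 0.75) and 1034 of 4871 genes without a ZNF name (21.2%, median 0.23). At 55% GC and over, the median was 0.04 in 22 members, −0.03 in 50 ZNF genes elsewhere and −0.42 in 3857 genes without a ZNF name. The bands were set after seeing the data, and the differences between the sets were not tested.

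**Figure D3:**
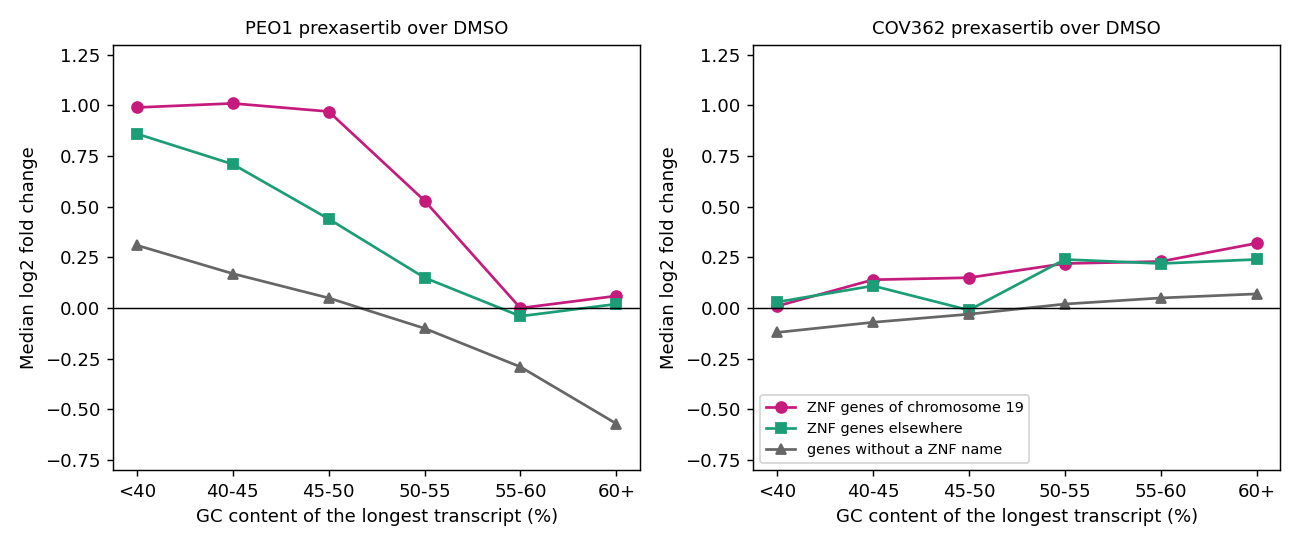
Median log2 fold change, prexasertib over DMSO, by band of transcript GC content in PEO1 (left) and COV362 (right), for the ZNF genes of chromosome 19, ZNF genes elsewhere and genes without a ZNF name. In PEO1 the members stay near 1 up to 50% GC and are at 0.06 at 60% and over, while genes without a ZNF name are at 0.31 in the lowest band and −0.57 in the highest.

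Along the chromosome, the rise in PEO1 was found in every large group but one. In group 10 (36.18 to 37.78 Mb) 17 of 22 tested members rose, with a median log2 fold change of 1.15 and all 22 above 0. In group 4 (11.48 to 12.63 Mb) 16 of 25 rose (median 1.07), in group 18 (51.57 to 53.58 Mb) 26 of 38 (1.0), in group 20 (57.19 to 58.49 Mb) 28 of 40 (0.98), and in group 13 (43.53 to 44.50 Mb) 11 of 22 (0.90). In group 3 (8.51 to 9.77 Mb) 5 of 11 rose and 1 fell, with a median of 0.76. In group 6 (19.67 to 24.13 Mb), whose members have a median GC of 37.4%, 9 of 29 rose with a median of 0.69, and all 29 were above 0.

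Group 19 (55.48 to 56.67 Mb) was the exception, with 1 of 16 higher and a median of 0.04. Its members have a median GC of 58.7%, and 5 of them hold the KRAB motif. Genes of other names within the spans moved in the same direction in some groups. In group 10, 7 of 15 were called higher (median 0.65), where 14.7% of all genes were, and in group 18 the median of 7 such genes was 0.46. Of the 15 in group 10, 9 have names that begin like a zinc finger gene, a count that takes in antisense genes named for members. Log2 fold changes of 205 adjacent pairs of members in the same positional group had a Spearman correlation of 0.35 in PEO1 and 0.11 in COV362, a description across genes that share libraries and sequence.

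**Figure D4:**
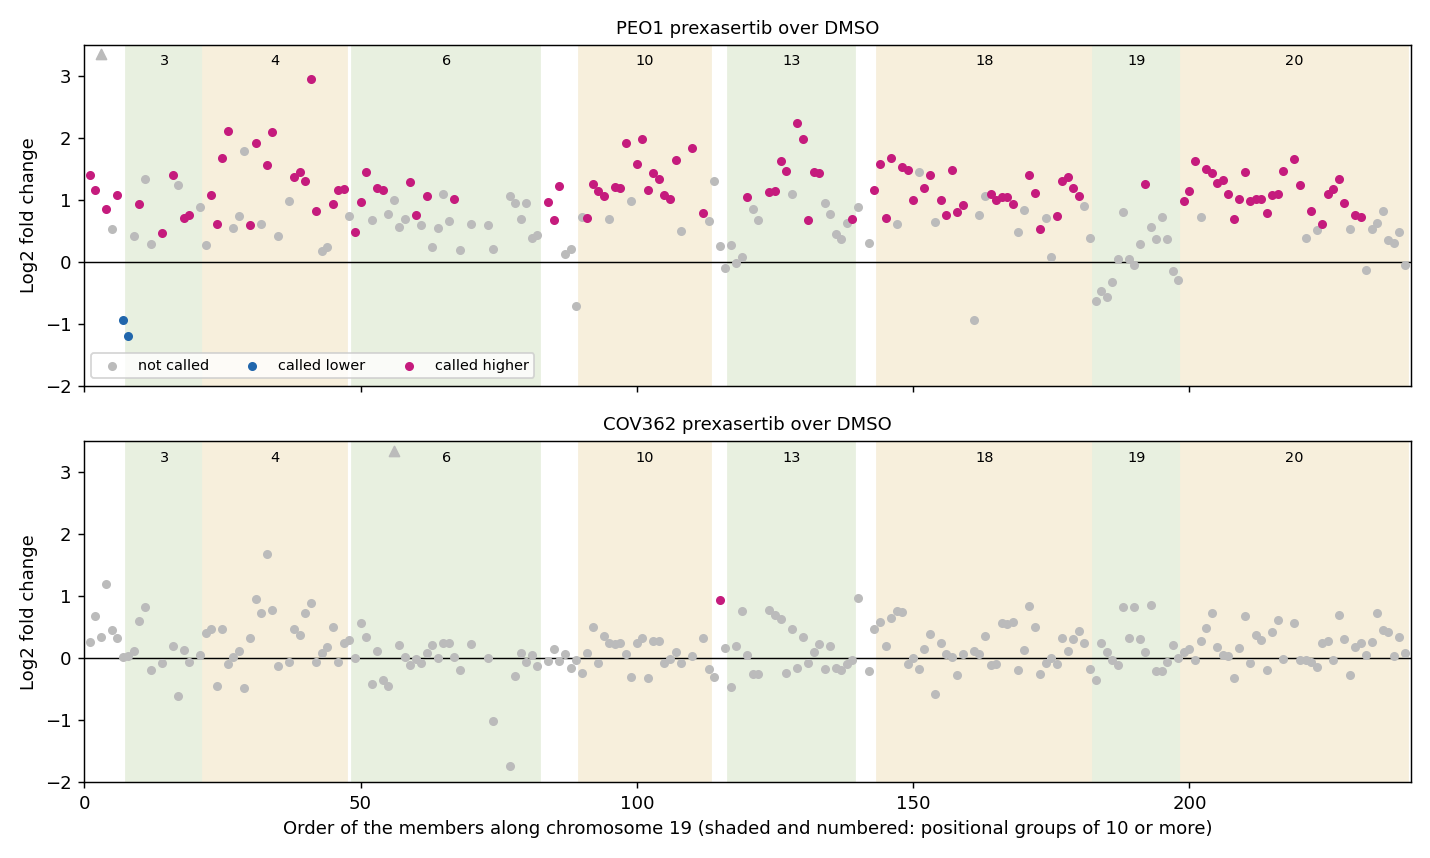
Log2 fold change, prexasertib over DMSO, of each tested member in PEO1 (top) and COV362 (bottom) against its order along chromosome 19, with the 8 groups of at least 10 members shaded and numbered. In PEO1 121 members are called higher across the groups, with 1 in group 19, and in COV362 only ZNF574 is. A triangle stands for a value beyond the axis.

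Some members share a start region. Within 1000 bases of each other on opposite strands, 6 pairs of members start back to back, 5 of them in group 10. ZNF829 and ZNF568 start 38 bases apart, so the ZNF829 promoter printed above is also the start region of ZNF568. ZNF568 was at 10.5, 11.4 and 8.21 CPM in PEO1 prexasertib and 3.26, 5.65 and 4.56 CPM in PEO1 DMSO, with no overlap (log2 1.16 ± 0.25; edgeR, adjusted p = 0.00365). ZNF490 and ZNF791, 109 bases apart in group 4, both rose in PEO1 (log2 1.16 and 1.17), as did ZNF569 and ZNF570, 335 bases apart (1.02 and 1.63). In the other 3 pairs ZNF529, ZNF345 and ZNF146 rose, while their partners ZNF382, ZNF790 and ZNF565 were not called (log2 0.69, 0.99 and 0.72). The kit keeps no strand, and exons of ZNF146 and ZNF565 overlap near their starts, so reads within the shared stretch cannot be told apart. Exons of 23 members overlap those of another gene. Without these 23, a choice made after seeing the data, 110 of 203 rose in PEO1 and 2 fell, with a median of 0.89.

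Of 16 chromosome 19 ZNF genes with a described role, 10 rose in PEO1 and 0 fell, with a median log2 fold change of 0.83. Of all tested members 54.3% rose, with a median of 0.91, and of all genes 14.7% rose. The count is therefore near the share of the members and no result about these 16. In COV362, 0 of the 16 were called without the replicate block, and with it ZNF350 was (edgeR, adjusted p = 0.168, with the block 0.0218). ZNF274, which brings SETDB1 to the 3′ ends of ZNF genes themselves, was at 43.5, 42.1 and 45.5 CPM in PEO1 prexasertib and 25.8, 25.7 and 28.2 CPM in PEO1 DMSO, with no overlap (log2 0.72 ± 0.14; edgeR, adjusted p = 0.00180). ZNF350, known as ZBRK1, a partner of BRCA1 in repressing GADD45A, was at 29.3, 33.3 and 25.1 CPM with prexasertib and 9.66, 9.01 and 11.7 CPM with DMSO in PEO1 (log2 1.53 ± 0.22; edgeR, adjusted p = 0.000247). ZNF304, a repressor of the INK4-ARF locus in colorectal cancer cells, was at 59.7, 64.7 and 49.0 CPM with prexasertib and 18.1, 25.2 and 18.0 CPM with DMSO in PEO1 (log2 1.5 ± 0.25; edgeR, adjusted p = 0.000758). All 3 genes had separate groups.

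ZNF93, which silences LINE-1 elements, rose in PEO1 (log2 1.19 ± 0.24; edgeR, adjusted p = 0.00271). ZNF91, which silences SVA elements, was at 0.94 ± 0.36 and missed the threshold (edgeR, adjusted p = 0.0628), although its treated libraries, at 10.6 to 14.6 CPM, all lay above the DMSO libraries at 5.48 to 7.20 CPM. ZNF420, known as Apak, a KRAB protein that restrains p53, rose by 1.44 ± 0.40 on the log2 scale (edgeR, adjusted p = 0.0158), a call lost without PEO1 DMSO A or B or PEO1 prexasertib B. ZNF671, whose promoter is methylated in several carcinomas, rose by 1.66 ± 0.32 (edgeR, adjusted p = 0.00180). The 5 others not called were ZNF382 (0.69), ZNF331 (0.39), ZNF667 (0.36), ZNF471 (0.72) and ZNF132 (0.30). The other 4 that rose were ZNF224 (2.24), a partner of WT1 whose groups overlapped, ZNF582 (1.25), ZNF146 (0.71) and ZNF180 (0.69). The call of ZNF224 was lost without PEO1 prexasertib B or C and without any of the 3 PEO1 DMSO libraries. Those of ZNF582 and ZNF180 were lost after the length and GC correction and without most single PEO1 libraries.

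Genes of the corepressor and of heterochromatin were called in PEO1 at shares not far from those of all genes, 14.7% higher and 14.6% lower, so their counts are no result about these lists. Of 18 genes of the KRAB corepressor complex, 3 rose and 4 fell, with a median log2 fold change of −0.03. TRIM28 itself averaged 362 ± 24.8 CPM with prexasertib and 410 ± 30.2 CPM with DMSO in PEO1 (SD, n = 3 each; log2 −0.18 ± 0.13; edgeR, adjusted p = 0.342). SETDB1 rose by 0.45 ± 0.12, its cofactor ATF7IP by 0.80 ± 0.18 and TRIM33, a relative of TRIM28, by 0.68 ± 0.22 on the log2 scale (edgeR, adjusted p = 0.0104, 0.00497 and 0.0293). Those that fell were the heterochromatin protein gene CBX3 and the deacetylase complex genes HDAC1, MTA1 and RBBP7, at −0.38, −0.65, −0.82 and −0.53. Of 8 HUSH genes and partners, ATF7IP, SETDB1 and MORC3 rose and 0 fell. Of 22 DNA methylation and heterochromatin genes, TET3 and MBD1 rose while UHRF1, EHMT1, EHMT2 and KDM1A fell. The HUSH list is too short for its share to be set against all genes. In COV362, 0 genes of these 3 lists were called without the replicate block. With it, each letter having the same shift in both lines, UHRF1 and ATRX fell and MBD1 rose (edgeR, log2 −0.44, −0.71 and 0.37 without the block, adjusted p with it = 0.00704, 0.00141 and 0.0297). Pairing across the lines is not settled.

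In COV362 the members moved little. Of 223 tested, 1 rose and 0 fell (edgeR, adjusted p under 0.05), where 0.607% of all genes were called higher and 0.221% lower. The median log2 fold change was 0.11, against −0.01 for all genes. The called member, ZNF574, was at 19.9, 14.9 and 15.5 CPM in COV362 prexasertib and 10.2, 7.01 and 9.38 CPM in COV362 DMSO, with no overlap (log2 0.93 ± 0.20; edgeR, adjusted p = 0.0481). With single libraries left out, it was called without COV362 DMSO A and missed the threshold without each of the other 11, its log2 fold change staying between 0.78 and 1.03. At an unadjusted p under 0.05 (edgeR) there were 29 members higher and 2 lower, against 917 and 912 of all 14498 genes. Of the 220 tested ZNF genes on other chromosomes, 29 were higher and 7 lower at this limit. In 27 members all treated libraries were above all DMSO libraries and in 3 below, against a background of 6.82% and 7.62%.

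The replicate letter was also taken as a block, which gave each letter the same shift in both lines. The correlations between same-lettered COV362 libraries call for pairing within COV362 only, and counts with a block within each line are given further below. With the shared block, 18 members rose in COV362 and 0 fell, against 4.2% and 5.45% of all genes. Among these were ZNF574 (adjusted p = 0.000507 with the block), ZNF317 (0.61 ± 0.13; adjusted p = 0.0538, with the block 0.000624), ZNF57 (1.20 ± 0.26; 0.0538, with the block 0.00229) and ZNF350 (0.74 ± 0.23; 0.168, with the block 0.0218), all edgeR tests. ZNF57 and ZNF317 were chosen after their values were seen. DESeq2 called 11 higher and 0 lower, and limma-voom 0. Members called higher in PEO1 had a median log2 fold change of 0.21 in COV362.

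The difference between the lines' responses was tested directly. With PEO1 response minus COV362 response, 19 members were higher and 0 lower (edgeR, adjusted p under 0.05), where 3.14% and 2.97% of all genes were called (6.1% in either direction), and the members' median difference was 0.70, against 0.03. ZNF442 differed by 2.06 ± 0.44 (edgeR, adjusted p = 0.0185), with a log2 fold change of 2.95 in PEO1 and 0.89 in COV362. ZNF850 differed by 1.86 ± 0.28 (edgeR, adjusted p = 0.00374), with 1.92 in PEO1 and 0.06 in COV362, where it was at 11.8, 18.1 and 15 CPM with prexasertib and 11.7, 15.3 and 15.8 CPM with DMSO. ZNF829 differed by 1.66 ± 0.29 (edgeR, adjusted p = 0.00717), and ZNF223 by 1.69 ± 0.44 (edgeR, adjusted p = 0.0402). ZNF223 was at 7.87, 6.04 and 7.06 CPM with prexasertib and 3.33, 1.79 and 2.53 CPM with DMSO in PEO1, without overlap, and at 2.21, 3.58 and 2.59 CPM with prexasertib and 2.42, 4.33 and 3.0 CPM with DMSO in COV362, with overlap. With the replicate letter as a block 97 members were higher and 3 lower, against 15.1% and 14.0% of all genes. Group 10 held 5 of the 19 members called and group 4 held 4. Without PEO1 prexasertib B or PEO1 DMSO A the count was 3, and without COV362 prexasertib B it was 41. It moved by over 1.5 times without every library except COV362 prexasertib A.

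Under DMSO the members differed between the lines in both directions. PEO1 DMSO had 43 members higher and 51 lower than COV362 DMSO (edgeR, adjusted p under 0.05), where 29.1% and 28.6% of all genes were called (57.7% in either direction). With the replicate letter as a block 58 were higher and 63 lower, against 34.3% and 34.0% of all genes. The median log2 fold change was −0.08. In 55 members every PEO1 DMSO library was above every COV362 DMSO library and in 54 below, against a background of 32.4% and 31.1%. The PEO1 DMSO libraries serve both in this comparison and in the drug comparison of PEO1, so a level that is low there raises the one and lowers the other.

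Several members were read under DMSO almost in 1 line only. ZNF69 (group 4) had 0 counts in all PEO1 DMSO libraries and 37, 85 and 57 counts in COV362 DMSO A, B and C, at least 74.0-fold lower in PEO1 DMSO when its 3 libraries together are given a floor of 3 counts, which covers counting error only. ZNF556 (group 1) had 0 counts in PEO1 DMSO and 9, 23 and 15 in COV362 DMSO, at least 19.4-fold lower. ZNF98 (group 6) had 9, 18 and 38 counts in PEO1 DMSO and 0 in all COV362 libraries, at least 17.5-fold higher in PEO1 DMSO. ZNF486, in the same group, had 192 counts over the PEO1 DMSO libraries and 1 over COV362 DMSO, a CPM ratio of 155 (95% exact interval 27.5 to 6150, counting error only). ZNF486 was read in COV362 prexasertib, at 13, 3 and 3 counts in A, B and C, a CPM ratio to COV362 DMSO of 17.5 (95% exact interval 2.78 to 728, counting error only), and was called there with the replicate block alone (edgeR, adjusted p = 0.132, with the block 0.0369).

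Further members were far lower in PEO1 DMSO. ZNF671 was at 1.31, 0.434 and 0.715 CPM in PEO1 DMSO and 7.98, 8.49 and 8.54 CPM in COV362 DMSO (log2 −3.37 ± 0.31; edgeR, adjusted p = 6.07e-07). ZNF418 was at 0.849, 0.651 and 1.04 CPM in PEO1 DMSO and 6.90, 8.44 and 10.9 CPM in COV362 DMSO (log2 −3.36 ± 0.35; edgeR, adjusted p = 2.12e-06). ZNF788 was at 2.15, 1.85 and 2.69 CPM in PEO1 DMSO and 18.6, 19.3 and 19.2 CPM in COV362 DMSO (log2 −3.09 ± 0.25; edgeR, adjusted p = 1.44e-07). All 3 had levels many times lower in every PEO1 DMSO library. ZNF578 was also lower (log2 −3.88 ± 0.89; edgeR, adjusted p = 0.00200).

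On the other side, ZNF358 was at 42.6, 31.3 and 34.3 CPM in PEO1 DMSO and 8.95, 8.87 and 9.84 CPM in COV362 DMSO (log2 1.96 ± 0.25; edgeR, adjusted p = 1.16e-05). ZNF331, an imprinted gene, was at 15, 15.4 and 16.7 CPM in PEO1 DMSO and 1.81, 6.08 and 8.28 CPM in COV362 DMSO (log2 1.49 ± 0.34; edgeR, adjusted p = 0.00202). ZNF835 (2.54 ± 0.55) and ZNF296 (1.53 ± 0.47) were higher in PEO1 DMSO as well (edgeR, adjusted p = 0.00132 and 0.0128), both below 3 CPM in every DMSO library, and ZNF296 missed the threshold without the A libraries.

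In some positional groups, neighbouring members differed between the lines together. In group 10, 21 of 22 tested members were lower in PEO1 DMSO (13 called lower, 0 higher, median log2 −0.78), and in group 20, 35 of 40 were (20 called lower, 0 higher, median −0.69). In group 3 all 11 were higher in PEO1 DMSO (5 called, median 0.83). Of all genes 29.1% were called higher and 28.6% lower in this comparison. These 3 of the 8 large groups were singled out after their values were seen. The genes of other names within the spans of groups 10 and 20 leaned the same way, with 12 of 15 lower in group 10 (median −0.78) and 11 of 12 lower in group 20 (median −0.87). Of these, 9 of 15 and 5 of 12 have names that begin like a zinc finger gene, a count that takes in antisense genes named for members. Exons of some antisense genes overlap those of members, and the kit keeps no strand. In group 6 the genes of other names did not follow the members. There the members had a median of −0.05, while 6 of 6 other genes were lower (median −1.89). Members of the other large groups went both ways. In groups 4, 6, 13, 18 and 19, 15, 13, 13, 26 and 8 members were above 0 and 10, 16, 9, 12 and 8 below. Across 205 adjacent pairs in the same positional group the differences had a Spearman correlation of 0.41 and a Pearson correlation of 0.22. This is again a description across genes.

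**Figure D5:**
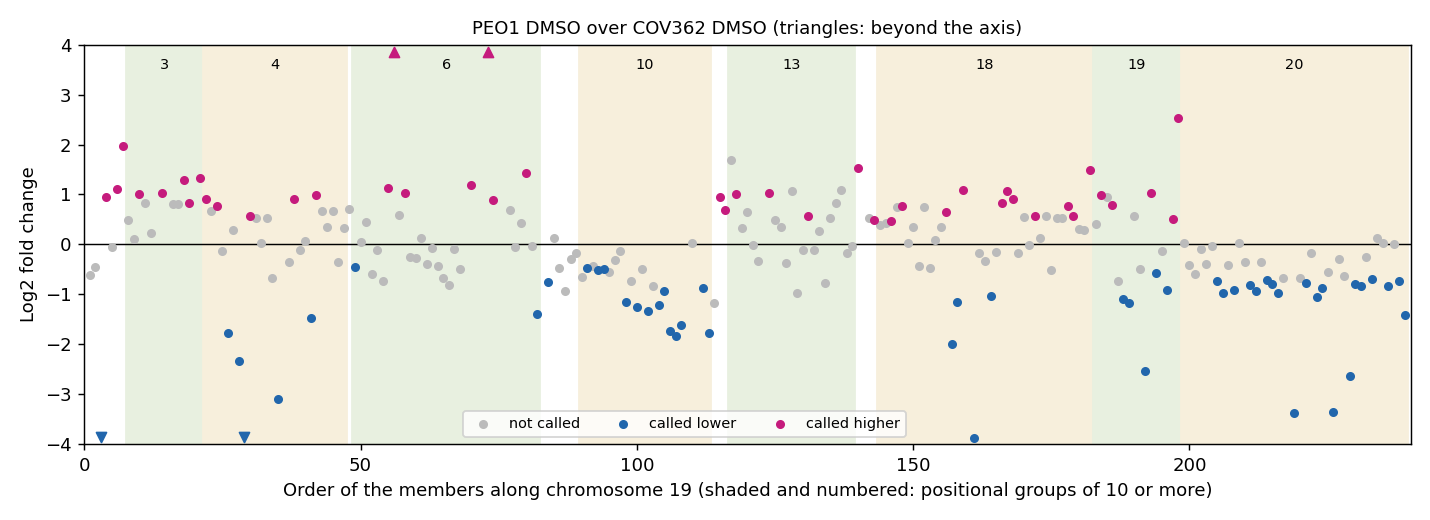
Log2 fold change, PEO1 DMSO over COV362 DMSO, of each tested member against its order along chromosome 19, with the 8 groups of at least 10 members shaded and numbered. Groups 10 and 20 lie below 0 nearly throughout, with 21 of 22 and 35 of 40 members, and all 11 of group 3 lie above it.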

How the data were processed

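Per the file headers, the deposited table holds raw counts per gene for 12 libraries, with exon coordinates and exon lengths in bases. The program featureCounts 1.4.6, Subread, STAR and hg38 are listed per the submitters' processing notes. Their role and order, and the handling of reads with several matches, are not given in the sources used here. Members of this family are near-identical in places, so counts of close copies are uncertain. Per the labels' protocols, the TruSeq v2 kit was used, which selects polyadenylated RNA and keeps no strand.

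Counts were scaled by TMM in edgeR 4.0.16 (R 4.3.3), filtered with filterByExpr (minimum count 10, minimum total 15; 14498 genes, 223 members) and tested by quasi-likelihood in 1 fit of 4 group means, with 8 residual degrees of freedom. Errors of log2 values are standard errors. Fits were tested on simulated data. GC content, KRAB motif and fingers came from GENCODE 29 transcripts, and 237 members matched by symbol. The text names the members with the 6 largest called changes each way without overlap and at least 1 CPM (4 for the difference), the 6 highest RPKM under DMSO, those at 0 in 1 line and the listed genes with a described role. ZNF568 and the other members of the back-to-back pairs, and those called only with the block, were named after their values were seen. The members and lists were chosen with earlier results of these data known. Alternatives were DESeq2 1.42.0, limma-voom 3.58.1, other scalings, filters, thresholds and positional gaps, a length and GC correction, replicate blocks and libraries left out, and, chosen after seeing the data, leaving out members with exon overlap. Deviations of same-lettered libraries correlated at 0.361, 0.368 and 0.119 between the COV362 groups. They correlated at 0.257, 0.143 and 0.067 between the PEO1 groups, and at 0.297, 0.134 and 0.124 between the DMSO groups of the lines. Some pairs of unlike letters in these sets correlated more than a same-lettered pair. These were COV362 DMSO B with COV362 prexasertib C (0.126), PEO1 DMSO C with PEO1 prexasertib B (0.191) and COV362 DMSO B with PEO1 DMSO C (0.21). Pairing was clearest in COV362 and is not settled in the other sets, so results with and without the block are given. Unless a block within each line is named, the block gives each letter the same shift in both lines.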

Additional observations from a re-analysis of the deposited data

Results flagged for a closer look

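By the test of the difference itself, the change with prexasertib differed between PEO1 and COV362 in 19 members. The 4 given here were named because they had the largest of these differences at a mean of at least 1 CPM. The difference on the log2 scale, PEO1 response minus COV362 response, was 2.06 in ZNF442, 1.86 in ZNF850, 1.69 in ZNF223 and 1.66 in ZNF829. ZNF850 passed the threshold in every alternative run. ZNF829 missed it against a 1.5-fold minimum only. ZNF442 and ZNF223 missed it in several, among them the exclusion of each PEO1 DMSO library and of PEO1 prexasertib A or B. Groups of 3 libraries were too small for a search for outlying samples.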

How the results depend on the processing

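Members called higher in COV362 numbered 1 in the edgeR test, 11 with DESeq2, 0 with limma-voom, 0 with RLE size factors, 2 with no filter, 18 with the replicate block, 26 with a block within each line, 6 with the length and GC correction, 25 with block and correction, 3 without the A libraries, and 0 each with a 1.5-fold minimum, with only the compared libraries and at an adjusted p under 0.01. Those called higher in PEO1 (121) numbered 54 with the 1.5-fold minimum and 73 at 0.01. The 2 lower became 0 with the correction, 1 with block and correction, 1 without the A libraries, 0 with the 1.5-fold minimum and 1 at 0.01. The PEO1 median of 0.91 was 0.66 with the correction and 0.65 with block and correction. The correlations do not settle whether the PEO1 letters pair. A block called 155 members higher and 2 lower there, against 24.0% and 23.8% of all genes. For the difference of responses (19 higher, 0 lower) the higher calls numbered 39 with DESeq2, 12 with library totals only, 97 with the block, 106 with a block within each line, 46 with block and correction, 1 with the 1.5-fold minimum and 3 at 0.01. The lower calls numbered 1 with DESeq2, 3 with either block and 1 with block and correction. The median difference of 0.70 was 0.45 with the correction, with or without the block. Between lines under DMSO, the 43 higher became 16 with the 1.5-fold minimum and 24 at 0.01, and the 51 lower became 84 with block and correction and 29 with the 1.5-fold minimum. The cause of these shifts was not tested.

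With each library left out in turn, calls in COV362 ranged from 0 to 1 higher, in PEO1 from 74 to 138 higher and 1 to 2 lower, and for the difference from 3 to 41 higher. In COV362 the uncalled log2 fold change of ZNF223 ranged from −0.46 to 0.04 and that of ZNF850 from −0.10 to 0.20, each changing sign. Medians of members kept their sign in PEO1 and for the difference in every alternative run. Members low in counts, and close copies whose reads may be split, are limited by depth.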
